A study of Mus musculus with 6 samples.

Results

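Glycolysis and central carbon enzymes are described here in 3 populations of mouse splenic dendritic cells, as 39 genes that were listed by name as enzymes of textbook pathways, a list drawn up with earlier results of these data known. The rule itself uses no measured value. Of the listed genes, 36 had a probe set carrying exactly 1 gene symbol, among 19938 genes measured that way, and they were read by 43 such probe sets. Gpi1, Eno1 and G6pdx had no such probe set in the annotation used and were not analysed here. The list holds the hexose steps of glycolysis, the triose steps to pyruvate, enzymes of lactate and pyruvate fate, the pentose phosphate pathway and the citrate cycle.

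Glycolysis splits glucose into pyruvate in the cytosol and yields ATP and NADH. Pyruvate is then reduced to lactate or enters the mitochondrion as acetyl-CoA, which the citrate cycle oxidises, while the pentose phosphate pathway draws glucose 6-phosphate off to make NADPH and ribose. Dendritic cells are known to raise glycolysis when they are activated, and resting conventional dendritic cells to rely largely on mitochondrial oxidation.

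The study used spleens of wild-type mice (WT in the labels) and 6 Affymetrix arrays, 2 for each of 3 populations sorted by surface CD24 and CD172a. CD24+CD172a+ cDC2 and CD24-CD172a+ cDC2 are type 2 conventional dendritic cells, and CD24+ cDC1 are type 1 conventional dendritic cells, whose sample titles give CD24+ alone while the series title adds CD172a-. The sample titles of CD24-CD172a+ cDC2 likewise give CD172a+ alone. No group was treated, and no age, sex or strain beyond WT was given in the sources used here. Whether a group's arrays represent different mice is not stated in the labels. The p-values below therefore measure only how far these arrays scatter, which may be technical, and with so few arrays the precision is limited.

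The array medians lay between 29.5 and 30.6 intensity units, and arrays of the same population correlated at 0.992 to 0.993 across genes, against 0.959 to 0.963 between a cDC2 and a cDC1 array. The markers of the sort followed the labels. Sirpa, which encodes CD172a, lay between 10.01 and 10.27 in both cDC2 populations and at 4.97 and 5.39 in cDC1 on the log2 scale. Xcr1, a chemokine receptor of cDC1, lay at 4.79 and 5.45 in CD24+CD172a+ cDC2, against 5.65 and 6.07 in CD24-CD172a+ cDC2 and 10.71 on both cDC1 arrays. Cd24a measured 10.94 and 10.82 in CD24+CD172a+ cDC2, against 8.68 and 8.97 in CD24-CD172a+ cDC2 and 11.83 and 11.66 in cDC1. All levels below are log2 intensities of a gene's brightest probe set, and levels of different genes are not set against each other, since probe sets differ in response.

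Several enzymes of the upper and middle part of glycolysis fell in both cDC2 populations relative to cDC1, led by Pfkp, Pgk1, Hk3 and Aldoc, while Eno3, Mdh2 and Pdk3 rose. In CD24+CD172a+ cDC2 over cDC1, 15 of 36 enzymes (41.7%) passed the test, a limma fit with p-values adjusted by Benjamini-Hochberg over all genes and a threshold of 0.05. That compares with 13.6% of all genes. Here 5 enzymes rose (Eno3, Ldhb, Pdha1, Pdk3 and Mdh2) and 10 fell (Hk2, Hk3, Pfkp, Aldoa, Aldoc, Pgk1, Pgam1, Taldo1, Cs and Idh1), beside 7.11% of all genes called higher and 6.52% called lower. The arrays of the groups did not overlap for 12 enzymes that were higher and 20 that were lower, where 23.5% and 28.6% of all genes were apart. With only genes above the median gene tested, 18 of 32 enzymes passed, beside 29.2% of those genes. The median log2 difference was -0.23 over the 36 enzymes, -0.03 over all genes and -0.01 over genes above the median gene. Each array holds RNA pooled from a sorted population, so fewer cells expressing a gene and less RNA of it per cell cannot be told apart.

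In CD24-CD172a+ cDC2 over cDC1, 19 of 36 enzymes (52.8%) passed, beside 15.7% of all genes. Of these 3 rose (Eno3, Pdk3 and Mdh2) and 16 fell, where 6.83% of all genes were called higher and 8.91% lower. The enzymes that fell were Hk3, Pfkl, Pfkm, Pfkp, Aldoa, Aldoc, Pgk1, Pgam1, Ldha, Pgls, Taldo1, Cs, Idh1, Idh2, Sucla2 and Mdh1. The arrays did not overlap for 6 enzymes that were higher and 24 that were lower, beside 25% and 27.4% of all genes. With only genes above the median gene tested, 19 of 32 enzymes passed, beside 33.5% of those genes. The median over the 36 was -0.43, against 0.00 over all genes and -0.05 over genes above the median gene. After cyclic loess, 12 enzymes were called lower and 3 higher, beside 15.2% of all genes called. This comparison and the previous one share the cDC1 arrays, so their likeness is no separate evidence.

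Between the cDC2 populations, in CD24+CD172a+ over CD24-CD172a+ cDC2, only Idh2 of the 36 enzymes was called by limma. It rose, and this 1 call is 2.78% of the list, beside 1.46% of all genes (161 higher and 130 lower, or 126 and 160 after cyclic loess normalisation). An unadjusted p under 0.05 was found for 9 enzymes and for 14% of all genes. The median difference was 0.15 over the enzymes, -0.01 over all genes and 0.05 over genes above the median gene. Counting arrays that did not overlap gave 15 enzymes higher and 4 lower here, where 21.4% and 22.8% of all genes were apart in those directions.

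**Figure D1:**
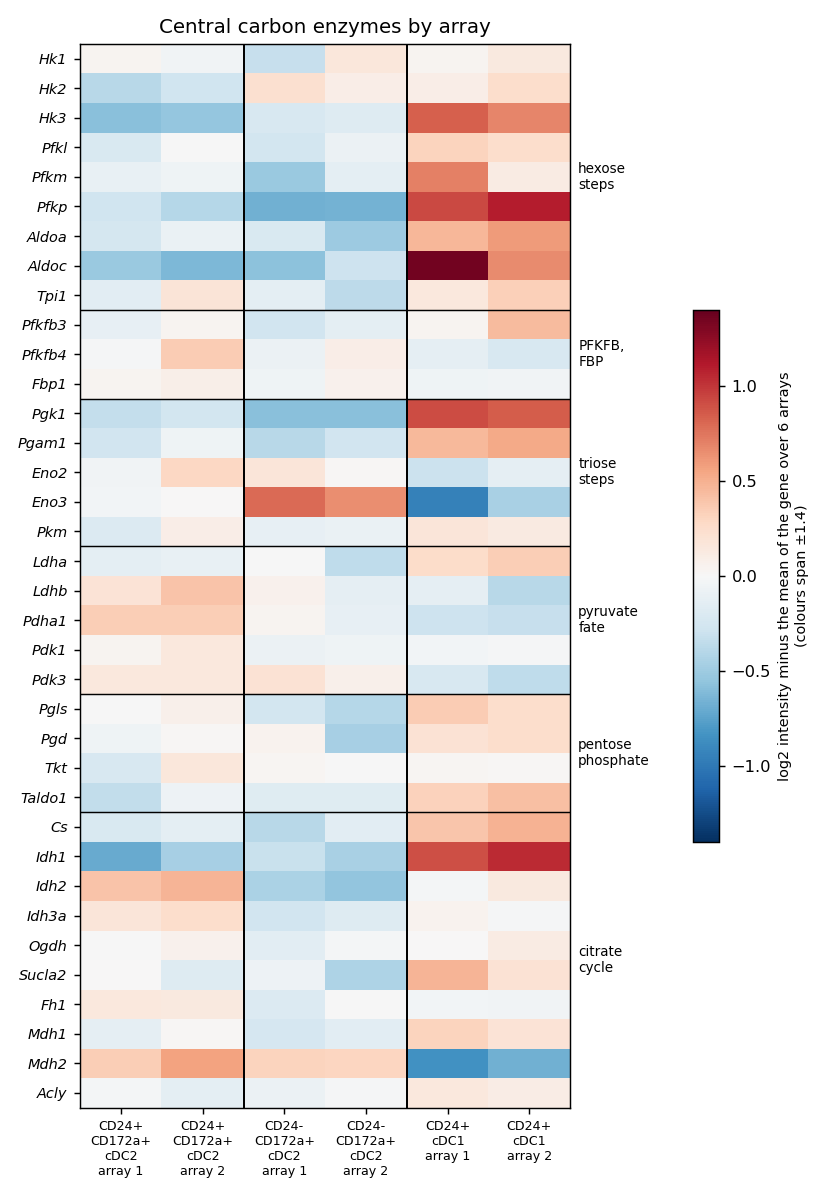
Heat map of the 36 measured enzymes (rows, grouped by role) on the 6 arrays (columns), coloured by log2 intensity minus the gene's own mean over 6 arrays. The cDC1 columns are red for Hk3, Pfkp, Aldoc, Pgk1 and Idh1 and blue for Eno3 and Mdh2.

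In both comparisons with cDC1, leaving out any 1 of the 4 compared arrays gave fewer calls among the enzymes and among all genes. For CD24+CD172a+ cDC2 over cDC1, Hk3, Pfkp, Aldoc, Pgk1, Pdha1, Idh1 and Mdh2 were called in all these fits and under every other setting tried. The other 8 calls each ended in at least 1 of these fits. For CD24-CD172a+ cDC2 over cDC1, Hk3, Pfkp, Aldoa, Aldoc, Pgk1, Pgam1, Eno3, Cs, Idh1 and Mdh2 were called throughout. Each of the other 9 calls ended in at least 1 of these fits.

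Promoter sequence is shown for the genes that fell most (Pfkp and Pgk1) and rose most (Eno3 and Mdh2) in CD24-CD172a+ cDC2 over cDC1, so that both directions can be read side by side. Each is a 300-base window of RefSeq on GRCm38.p6, from upstream of the gene's start to just within the transcript, 5′ to 3′ on the gene's strand. Capitals mark ACGTG or GCGTG, the core letters of the hypoxia response element, or on the other strand CACGT or CACGC. The motifs share their last 4 letters, and no position counts for both.
Pfkp, chr13:6648722-6649021, minus strand: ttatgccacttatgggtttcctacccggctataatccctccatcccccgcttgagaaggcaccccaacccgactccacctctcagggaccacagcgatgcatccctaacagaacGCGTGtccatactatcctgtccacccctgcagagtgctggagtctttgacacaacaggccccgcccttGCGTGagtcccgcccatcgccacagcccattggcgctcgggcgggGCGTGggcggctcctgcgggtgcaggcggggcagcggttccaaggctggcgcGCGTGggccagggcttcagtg
Pgk1, chrX:106186850-106187149, plus strand: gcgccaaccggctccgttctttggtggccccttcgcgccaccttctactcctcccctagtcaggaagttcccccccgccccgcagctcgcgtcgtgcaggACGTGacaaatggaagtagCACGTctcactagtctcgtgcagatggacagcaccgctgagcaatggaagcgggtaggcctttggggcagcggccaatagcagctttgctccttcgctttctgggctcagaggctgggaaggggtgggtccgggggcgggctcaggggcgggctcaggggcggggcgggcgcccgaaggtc
Eno3, chr11:70656926-70657225, plus strand: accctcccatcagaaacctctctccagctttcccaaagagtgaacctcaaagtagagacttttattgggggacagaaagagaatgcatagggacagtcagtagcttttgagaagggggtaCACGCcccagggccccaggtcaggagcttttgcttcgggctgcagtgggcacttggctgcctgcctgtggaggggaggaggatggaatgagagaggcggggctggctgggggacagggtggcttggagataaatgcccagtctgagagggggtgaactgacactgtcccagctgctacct
Mdh2, chr5:135778399-135778698, plus strand: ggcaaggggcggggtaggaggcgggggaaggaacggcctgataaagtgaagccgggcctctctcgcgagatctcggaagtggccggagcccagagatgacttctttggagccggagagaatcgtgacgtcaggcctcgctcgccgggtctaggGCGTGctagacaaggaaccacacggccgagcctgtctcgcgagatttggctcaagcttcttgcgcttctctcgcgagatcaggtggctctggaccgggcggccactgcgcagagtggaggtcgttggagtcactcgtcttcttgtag
Pfkp has 4 matches, Pgk1 has 2, and Eno3 and Mdh2 have 1 each. RefSeq windows were matched for 35 of the 36 enzymes, and 30 of these (85.7%) held a match in some window. Of all 27025 genes with RefSeq windows, 46.7% did. Counted by window, 42 of 53 windows of the enzymes (79.2%) held a match, beside 43.8% of all 32851 windows. Among enzymes that fell in CD24-CD172a+ cDC2 over cDC1, 14 of 16 had a match, and 3 of 3 that rose had one. Cs and Sucla2 fell with none in their windows. A match is a description of the letters only, and the base composition of the windows was not compared.

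The hexose steps hold 9 measured enzymes, from hexokinase, which traps glucose as glucose 6-phosphate, to triose phosphate isomerase. By the brightest probe sets, all 9 differences from cDC1 were below 0 in both cDC2 populations. Hk2 in CD24-CD172a+ cDC2 turned to 0.07 after cyclic loess. Hk1 was positive in both populations by its dimmer probe set and with its probe sets averaged. Limma called 5 lower in CD24+CD172a+ cDC2 over cDC1, 6 lower in CD24-CD172a+ cDC2 over cDC1, and 0 higher in either. The shares of all genes called lower were 6.52% and 8.91%. Among the hexokinases, the myeloid isoform Hk3 measured 5.08 and 5.13 in CD24+CD172a+ cDC2, against 5.44 and 5.49 in CD24-CD172a+ cDC2 and 6.50 and 6.35 in cDC1. Both cDC2 groups lay wholly below cDC1 and did not overlap each other. The difference from cDC1 was -1.32 ± 0.13 (SE) in CD24+CD172a+ cDC2, 2.50-fold lower, with an adjusted p of 4.26e-05 by limma. In CD24-CD172a+ cDC2 it was -0.96 ± 0.13, with an adjusted p of 0.00043. Between the cDC2 populations Hk3 differed by -0.36, with an adjusted p of 0.225.

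Hk2, the inducible and insulin-regulated hexokinase, showed another order. It measured 5.75 and 5.86 in CD24+CD172a+ cDC2, against 6.36 and 6.23 in CD24-CD172a+ cDC2 and 6.23 and 6.38 in cDC1. The CD24+CD172a+ arrays were lowest, and the other populations overlapped. Hk2 fell by 0.50 in CD24+CD172a+ cDC2 over cDC1 (limma adjusted p = 0.0284), a call that ended without any 1 of the 4 arrays compared. The difference of CD24-CD172a+ cDC2 from cDC1 was -0.01 (95% interval -0.30 to 0.29), and that between the cDC2 populations was -0.50 (adjusted p = 0.112). Hk1, the constitutive isoform, was called in no comparison by its brighter probe set. Its levels were 11.12 and 11.03 in CD24+CD172a+ cDC2, against 10.77 and 11.24 in CD24-CD172a+ cDC2 and 11.13 and 11.23 in cDC1. A dimmer Hk1 probe set gave 0.53 in CD24-CD172a+ cDC2 over cDC1 (limma adjusted p = 0.0175), of opposite sign to the brighter one (-0.17). In CD24+CD172a+ cDC2 over cDC1 it gave 0.41 (limma adjusted p = 0.0576), against -0.10 for the brighter one. The Hk1 probe sets thus disagree, and which of them reads Hk1 better was not tested.

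Phosphofructokinase commits sugar to glycolysis, and its 3 isoform genes were all lower in CD24-CD172a+ cDC2. Pfkp, the platelet isoform, measured 8.58 and 8.46 in CD24+CD172a+ cDC2, against 8.19 and 8.20 in CD24-CD172a+ cDC2 and 9.78 and 9.96 in cDC1. No cDC2 array came near the cDC1 arrays, and CD24-CD172a+ cDC2 was the lowest group. Pfkp fell by 1.35 ± 0.13 in CD24+CD172a+ cDC2 over cDC1 (limma adjusted p = 4.55e-05) and by 1.68 ± 0.13 in CD24-CD172a+ cDC2 (adjusted p = 8.69e-06), 2.54-fold and 3.20-fold lower. The cDC2 populations differed in Pfkp by 0.33 (95% interval 0.04 to 0.62, adjusted p = 0.288). The liver isoform Pfkl measured 4.97 and 5.18 in CD24+CD172a+ cDC2, against 4.93 and 5.11 in CD24-CD172a+ cDC2 and 5.51 and 5.44 in cDC1. It fell by 0.45 in CD24-CD172a+ cDC2 over cDC1 (adjusted p = 0.0476), while the difference of -0.40 in CD24+CD172a+ cDC2 was not called (adjusted p = 0.0922). The Pfkl call ended without any 1 of the 4 arrays compared, and also after cyclic loess. The muscle isoform Pfkm was dim, at 4.58 and 4.62 in CD24+CD172a+ cDC2, against 4.17 and 4.55 in CD24-CD172a+ cDC2 and 5.39 and 4.80 in cDC1. Its cDC1 arrays lay apart from each other. Pfkm fell by 0.73 ± 0.20 in CD24-CD172a+ cDC2 over cDC1 (adjusted p = 0.0289), but by 0.44 and without a call when cDC1 replicate 1 was left out.

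Aldolase cleaves fructose 1,6-bisphosphate into the triose phosphates, and both measured isoforms fell in both cDC2 populations. Aldoa, the broadly expressed isoform, measured 8.35 and 8.51 in CD24+CD172a+ cDC2, against 8.39 and 8.09 in CD24-CD172a+ cDC2 and 9.06 and 9.19 in cDC1. The cDC2 populations overlapped and both stayed under cDC1. Aldoa fell by 0.70 in CD24+CD172a+ cDC2 over cDC1 (limma adjusted p = 0.0082) and by 0.89 in CD24-CD172a+ cDC2 over cDC1 (adjusted p = 0.00176). Aldoc, known mainly from brain, measured 4.90 and 4.79 in CD24+CD172a+ cDC2, against 4.84 and 5.13 in CD24-CD172a+ cDC2 and 6.78 and 6.08 in cDC1. The cDC1 arrays of Aldoc had an SD of 0.49, the widest of any measured enzyme in any group, yet both stood above every cDC2 array. It fell by 1.58 ± 0.21 in CD24+CD172a+ cDC2 (2.99-fold, adjusted p = 0.000422) and by 1.44 ± 0.21 in CD24-CD172a+ cDC2 (adjusted p = 0.000775). Tpi1, which interconverts the triose phosphates, was not called. Its differences from cDC1 were -0.22 (95% interval -0.56 to 0.13) in CD24+CD172a+ cDC2 and -0.49 (-0.84 to -0.15, adjusted p = 0.0583) in CD24-CD172a+ cDC2.

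**Figure D2:**
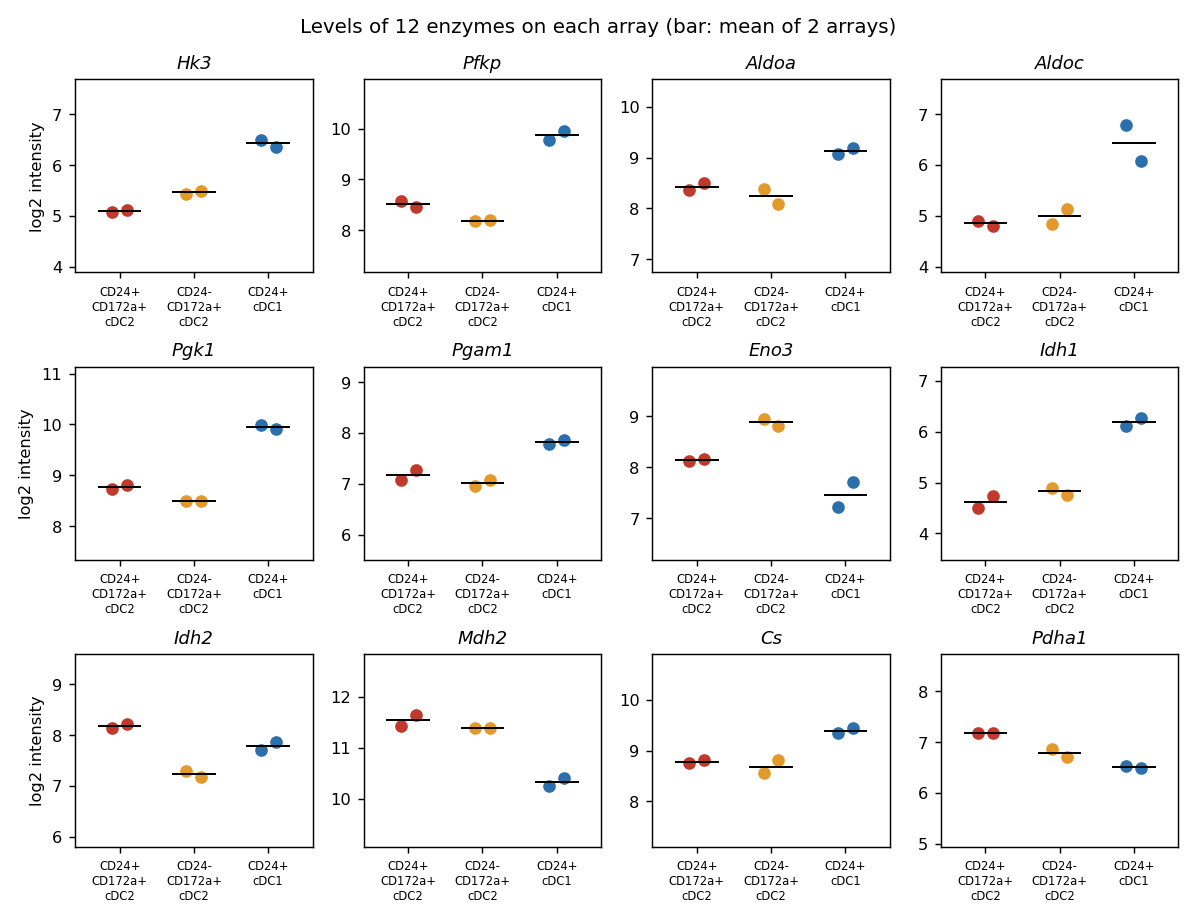
Log2 intensity of 12 enzymes on each array (points) with the mean of the 2 arrays of each population (bars), every panel spanning the same log2 range. Hk3, Pfkp, Aldoa, Aldoc, Pgk1, Pgam1, Idh1 and Cs are highest in cDC1, Eno3 and Mdh2 are lowest there, and Idh2 is lowest in CD24-CD172a+ cDC2.

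Genes that set the pace of phosphofructokinase or run the step backwards gave no call in any comparison. Pfkfb3 and Pfkfb4 make and break fructose 2,6-bisphosphate, its allosteric activator. Pfkfb3 measured 8.59 and 8.75 in CD24+CD172a+ cDC2, against 8.44 and 8.57 in CD24-CD172a+ cDC2 and 8.75 and 9.15 in cDC1. Its difference from cDC1 was -0.28 in CD24+CD172a+ cDC2, against -0.44 in CD24-CD172a+ cDC2 (95% interval -0.79 to -0.09, limma adjusted p = 0.0933). Pfkfb4 leaned the other way in CD24+CD172a+ cDC2 over cDC1, by 0.35 (95% interval 0.01 to 0.68, adjusted p = 0.2). Fbp1, the gluconeogenic fructose bisphosphatase, lay between 2.80 and 2.94 on all 6 arrays. It was the sole measured enzyme whose mean fell below the 25th percentile of genes (3.94).

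Of 5 measured genes from phosphoglycerate kinase to pyruvate kinase, 1 rose and 2 fell in each cDC2 population over cDC1. Among all genes, 13.6% were called in CD24+CD172a+ cDC2 over cDC1 and 15.7% in CD24-CD172a+ cDC2 over cDC1. Pgk1, which makes the first ATP of glycolysis, measured 8.74 and 8.82 in CD24+CD172a+ cDC2, 8.49 on both CD24-CD172a+ arrays, and 9.99 and 9.92 in cDC1. The 3 populations did not overlap, with cDC1 far above both others. Pgk1 fell by 1.18 ± 0.12 in CD24+CD172a+ cDC2 over cDC1 (2.26-fold, limma adjusted p = 8.41e-05) and by 1.46 ± 0.12 in CD24-CD172a+ cDC2 over cDC1 (2.76-fold, adjusted p = 1.68e-05). Of its 3 probe sets, a second carries identical values, and the remaining one gave -1.14 and -1.44 in the same comparisons. Signal from near-identical copies of the gene was not tested.

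Pgam1, phosphoglycerate mutase, measured 7.07 and 7.28 in CD24+CD172a+ cDC2, against 6.95 and 7.07 in CD24-CD172a+ cDC2 and 7.79 and 7.87 in cDC1. Both cDC2 groups were below cDC1. It fell by 0.65 in CD24+CD172a+ cDC2 over cDC1 (1.57-fold, limma adjusted p = 0.00765) and by 0.82 in CD24-CD172a+ cDC2 (1.76-fold, adjusted p = 0.00178). Pgam1 also has 3 probe sets, of which a pair is identical, and the remaining one gave -0.86 and -0.96. Pkm, the pyruvate kinase of most tissues, was called in no comparison. Its differences from cDC1 were -0.19 (95% interval -0.50 to 0.11) in CD24+CD172a+ cDC2 and -0.25 (-0.55 to 0.06) in CD24-CD172a+ cDC2. A dimmer Pkm probe set gave -0.33 and -0.44, also not called.

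Enolase makes phosphoenolpyruvate, and its muscle isoform Eno3 ran against Pgk1, Pgam1 and Pkm. Eno3 measured 8.12 and 8.16 in CD24+CD172a+ cDC2, against 8.95 and 8.81 in CD24-CD172a+ cDC2 and 7.21 and 7.70 in cDC1. The populations were fully separated, highest in CD24-CD172a+ cDC2 and lowest in cDC1. It rose by 1.42 ± 0.17 in CD24-CD172a+ cDC2 over cDC1 (2.68-fold, limma adjusted p = 0.000182). In CD24+CD172a+ cDC2 over cDC1 it rose by 0.68 ± 0.17 (1.61-fold, adjusted p = 0.0196), but by 0.44 and without a call when cDC1 replicate 1 was left out. The difference between the cDC2 populations was -0.74 ± 0.17 and missed the threshold (adjusted p = 0.0645). Fits without a single array aside, it passed in 4 of 8 alternative fits, 1 of which used the cDC2 arrays alone. The neuronal isoform Eno2 was not called, with differences from cDC1 of 0.33 (95% interval 0.00 to 0.67) in CD24+CD172a+ cDC2 and 0.31 (-0.03 to 0.64) in CD24-CD172a+ cDC2. Eno1, the main enolase of most tissues, was not analysed here, so total enolase cannot be read from these genes.

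Counted from glucose to pyruvate, 14 of 16 listed enzyme genes were measured. In CD24+CD172a+ cDC2 over cDC1, 1 rose and 7 fell, beside 7.11% of all genes higher and 6.52% lower, with a median difference of -0.50. In CD24-CD172a+ cDC2 over cDC1, 1 rose and 8 fell, beside 6.83% higher and 8.91% lower, with a median of -0.61. Between the cDC2 populations 0 were called by limma and 5 had an unadjusted p under 0.05, a cut that 14% of all genes passed, with a median of 0.07.

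**Figure D3:**
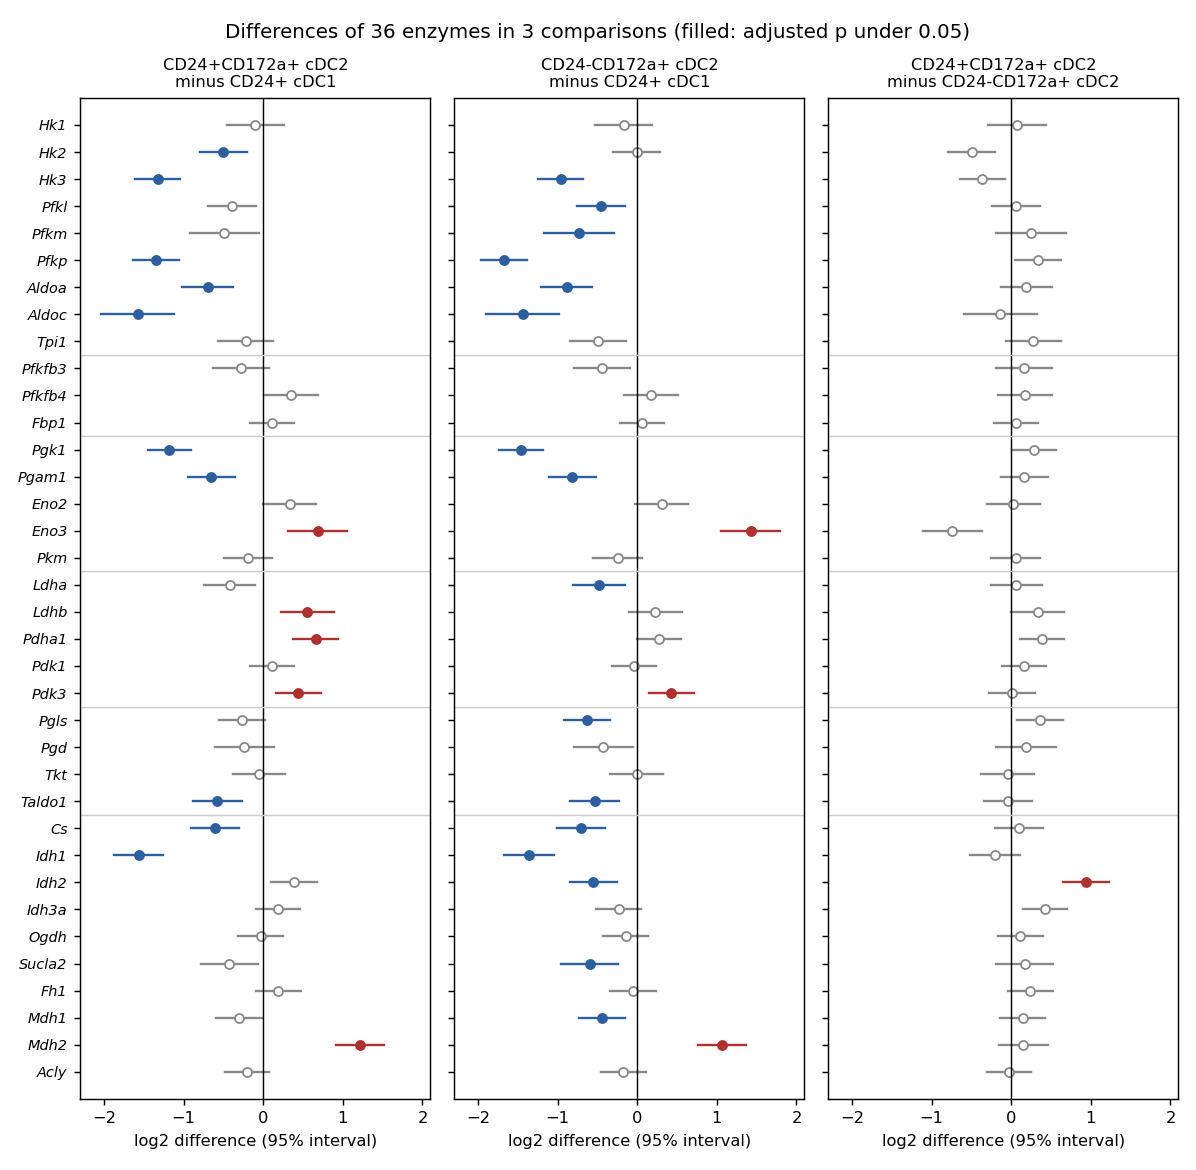
Log2 difference (points) with its 95% interval (lines) for the 36 measured enzymes in 3 comparisons, in which filled points passed an adjusted p of 0.05, red higher and blue lower. Most filled points of the left and middle panels lie below 0, and only Idh2 is filled in the right panel.

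Of the 5 enzymes of pyruvate and lactate fate, 3 rose and 0 fell in CD24+CD172a+ cDC2 over cDC1, beside 13.6% of all genes called. In CD24-CD172a+ cDC2 over cDC1, 1 rose and 1 fell, beside 15.7% of all genes called. Ldha, the lactate dehydrogenase subunit that favours lactate formation, measured 8.83 and 8.87 in CD24+CD172a+ cDC2, against 8.97 and 8.61 in CD24-CD172a+ cDC2 and 9.23 and 9.31 in cDC1. All cDC2 arrays lay under cDC1. It fell by 0.48 in CD24-CD172a+ cDC2 over cDC1 (limma adjusted p = 0.0478), and by 0.31 without a call when CD24-CD172a+ cDC2 replicate 2 was left out. The difference of -0.42 in CD24+CD172a+ cDC2 was not called (adjusted p = 0.0919). Ldhb, the subunit that favours lactate oxidation, measured 5.36 and 5.57 in CD24+CD172a+ cDC2, against 5.23 and 5.04 in CD24-CD172a+ cDC2 and 5.05 and 4.78 in cDC1. The CD24+CD172a+ arrays were highest. Ldhb rose by 0.55 ± 0.15 in CD24+CD172a+ cDC2 over cDC1 (adjusted p = 0.0326), a call absent from the dimmer probe set, which gave 0.96 with wide scatter (adjusted p = 0.0976).

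Pdha1, the catalytic subunit that lets pyruvate dehydrogenase turn pyruvate into acetyl-CoA, measured 7.17 on both CD24+CD172a+ arrays, 6.86 and 6.71 in CD24-CD172a+ cDC2, and 6.53 and 6.50 in cDC1. The populations stood in that order without overlap. Pdha1 rose by 0.66 ± 0.13 in CD24+CD172a+ cDC2 over cDC1 (1.58-fold, limma adjusted p = 0.00522). It was 0.27 higher in CD24-CD172a+ cDC2 than in cDC1 (95% interval -0.01 to 0.55), and the cDC2 populations differed by 0.39 (adjusted p = 0.194), neither of which was called. Pdk3 encodes a kinase that switches this complex off. It measured 7.17 on both CD24+CD172a+ arrays, 7.22 and 7.09 in CD24-CD172a+ cDC2, and 6.79 and 6.66 in cDC1. Pdk3 rose by 0.44 in CD24+CD172a+ cDC2 over cDC1 (adjusted p = 0.0471) and by 0.43 in CD24-CD172a+ cDC2 over cDC1 (adjusted p = 0.0468), and each of these calls ended without any 1 of the 4 arrays compared. Pdk1, a kinase of the same family, was not called, with differences from cDC1 of 0.11 (95% interval -0.16 to 0.39) and -0.04 (-0.32 to 0.23) in CD24+CD172a+ and CD24-CD172a+ cDC2.

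In the pentose phosphate pathway all 4 measured enzymes had differences from cDC1 below 0 in both cDC2 populations, though Tkt in CD24-CD172a+ cDC2 turned to 0.09 after cyclic loess. Of these enzymes 1 fell in CD24+CD172a+ cDC2, against 2 in CD24-CD172a+ cDC2, beside 6.52% and 8.91% of all genes called lower. Taldo1, transaldolase of the non-oxidative branch, measured 9.14 and 9.41 in CD24+CD172a+ cDC2, 9.32 on both CD24-CD172a+ arrays, and 9.80 and 9.91 in cDC1. It fell by 0.58 in CD24+CD172a+ cDC2 over cDC1 (limma adjusted p = 0.0179) and by 0.54 in CD24-CD172a+ cDC2 (adjusted p = 0.0235). The Taldo1 call in CD24-CD172a+ cDC2 ended without any 1 of the 4 arrays compared. That in CD24+CD172a+ cDC2 ended without its replicate 1 or without either cDC1 array. The cDC2 populations overlapped. Pgls, the lactonase of the oxidative branch, measured 8.46 and 8.54 in CD24+CD172a+ cDC2, against 8.21 and 8.06 in CD24-CD172a+ cDC2 and 8.82 and 8.71 in cDC1. CD24-CD172a+ cDC2 was the lowest group without overlap. Pgls fell by 0.63 there over cDC1 (adjusted p = 0.00738), against -0.27 (95% interval -0.55 to 0.02) for CD24+CD172a+ cDC2. Pgd, which yields NADPH and ribulose 5-phosphate, was not called with all arrays. Its difference of -0.43 in CD24-CD172a+ cDC2 over cDC1 was -0.68 without CD24-CD172a+ cDC2 replicate 1, where it passed (limma adjusted p = 0.0188), and -0.17 without its replicate 2. Tkt, transketolase, differed from cDC1 by -0.06 (95% interval -0.38 to 0.27) in CD24+CD172a+ cDC2 and -0.01 (-0.34 to 0.32) in CD24-CD172a+ cDC2.

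Of 10 genes of the citrate cycle and citrate use, 1 was called higher and 2 lower in CD24+CD172a+ cDC2 over cDC1. In CD24-CD172a+ cDC2 over cDC1, 1 was called higher and 5 lower. Of all genes, 7.11% were called higher and 6.52% lower in the first comparison, and 6.83% and 8.91% in the second. Mdh2, the mitochondrial malate dehydrogenase, measured 11.43 and 11.65 in CD24+CD172a+ cDC2, against 11.40 and 11.39 in CD24-CD172a+ cDC2 and 10.24 and 10.41 in cDC1. Both cDC2 populations were far above cDC1. Mdh2 rose by 1.22 ± 0.14 in CD24+CD172a+ cDC2 (2.32-fold, limma adjusted p = 0.000134) and by 1.06 ± 0.14 in CD24-CD172a+ cDC2 (2.09-fold, adjusted p = 0.000347). Its cytosolic counterpart Mdh1, of the malate-aspartate shuttle, measured 9.17 and 9.30 in CD24+CD172a+ cDC2, against 9.05 and 9.14 in CD24-CD172a+ cDC2 and 9.60 and 9.48 in cDC1. Mdh1 was thus highest in cDC1. It fell by 0.44 in CD24-CD172a+ cDC2 over cDC1 (adjusted p = 0.0422), and its difference of -0.30 in CD24+CD172a+ cDC2 was not called (adjusted p = 0.183). The Mdh1 call ended without any 1 of the 4 arrays compared, and also after cyclic loess.

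Idh1, the cytosolic NADP-dependent isocitrate dehydrogenase, measured 4.50 and 4.74 in CD24+CD172a+ cDC2, against 4.90 and 4.76 in CD24-CD172a+ cDC2 and 6.12 and 6.26 in cDC1. The cDC1 arrays stood apart from all others. Idh1 fell by 1.57 ± 0.14 in CD24+CD172a+ cDC2 over cDC1 (2.96-fold, limma adjusted p = 2.46e-05) and by 1.36 ± 0.14 in CD24-CD172a+ cDC2 over cDC1 (2.57-fold, adjusted p = 7.44e-05). Idh2, the mitochondrial NADP-dependent enzyme, had another order, at 8.14 and 8.21 in CD24+CD172a+ cDC2, against 7.29 and 7.18 in CD24-CD172a+ cDC2 and 7.70 and 7.87 in cDC1. The populations did not overlap, and cDC1 lay between the cDC2 groups. Idh2 rose by 0.94 ± 0.13 in CD24+CD172a+ over CD24-CD172a+ cDC2 (1.92-fold, adjusted p = 0.00973). The call was lost without CD24+CD172a+ cDC2 replicate 1, without its replicate 2 and without CD24-CD172a+ cDC2 replicate 2, with an adjusted p of up to 0.0912, while the difference lay between 0.84 and 0.99 over all settings. Against cDC1, Idh2 fell by 0.55 in CD24-CD172a+ cDC2 (adjusted p = 0.0154), and its difference of 0.39 in CD24+CD172a+ cDC2 was not called (adjusted p = 0.0829).

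Beside the rise of Idh2, markers of dividing cells also differed between the cDC2 populations. Of 14 measured proliferation markers 9 rose in CD24+CD172a+ over CD24-CD172a+ cDC2, where 0.808% of all genes were called higher and 0.652% lower. The summed intensity of the 14 was 4812 to 5191 in CD24+CD172a+ cDC2, against 3868 to 4123 in CD24-CD172a+ cDC2 and 4023 to 4197 in cDC1. Pcna, the largest term of that sum, differed by -0.01 between the cDC2 populations. Of 13 measured monocyte and macrophage markers 7 fell in the same comparison, summing to 3738 to 4334 in CD24+CD172a+ cDC2, 5886 to 6157 in CD24-CD172a+ cDC2, and 5545 to 5697 in cDC1. Of 7 plasmacytoid dendritic cell markers 3 rose, summing to 745 to 767 in CD24+CD172a+ cDC2 and 484 to 485 in CD24-CD172a+ cDC2, beside 606 to 618 in cDC1. The neutrophil markers S100a8 and S100a9 were the 2 of 12 that rose, with sums of 341 to 379 in CD24+CD172a+ cDC2, 259 to 271 in CD24-CD172a+ cDC2, and 240 to 243 in cDC1. The part of these cells in the result was not tested.

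Cs, citrate synthase, which starts the cycle, measured 8.75 and 8.82 in CD24+CD172a+ cDC2, against 8.56 and 8.81 in CD24-CD172a+ cDC2 and 9.34 and 9.44 in cDC1. The cDC2 populations overlapped below cDC1. Cs fell by 0.61 in CD24+CD172a+ cDC2 over cDC1 (limma adjusted p = 0.0125) and by 0.71 in CD24-CD172a+ cDC2 over cDC1 (adjusted p = 0.00499). Sucla2, the ATP-forming subunit of succinyl-CoA ligase, measured 7.22 and 7.04 in CD24+CD172a+ cDC2, against 7.14 and 6.78 in CD24-CD172a+ cDC2 and 7.69 and 7.43 in cDC1. It fell by 0.60 in CD24-CD172a+ cDC2 (adjusted p = 0.0303), and the difference of -0.43 in CD24+CD172a+ cDC2 was not called (adjusted p = 0.126).

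The remaining genes of the cycle and of citrate use passed in no comparison. Idh3a, of the NAD-dependent isocitrate dehydrogenase, measured 6.85 and 6.92 in CD24+CD172a+ cDC2, against 6.42 and 6.51 in CD24-CD172a+ cDC2 and 6.73 and 6.66 in cDC1. Its arrays followed the order of Idh2, with a difference of 0.42 between the cDC2 populations (95% interval 0.15 to 0.70, limma adjusted p = 0.152). Ogdh, of the oxoglutarate dehydrogenase complex, and Fh1, fumarase, differed from cDC1 by -0.03 and 0.19 in CD24+CD172a+ cDC2 and by -0.15 and -0.05 in CD24-CD172a+ cDC2. Acly, which splits exported citrate into acetyl-CoA for lipid synthesis, differed from cDC1 by -0.21 (95% interval -0.49 to 0.07) in CD24+CD172a+ cDC2 and by -0.17 (-0.45 to 0.10) in CD24-CD172a+ cDC2.

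Beside the differences from cDC1, other markers moved too. For all genes, 7.11% were called higher and 6.52% lower in CD24+CD172a+ cDC2 over cDC1, and 6.83% and 8.91% in CD24-CD172a+ cDC2 over cDC1. In CD24+CD172a+ cDC2 over cDC1, 7 of 14 proliferation markers rose and 0 fell, and 3 of 13 monocyte and macrophage markers rose and 4 fell. In CD24-CD172a+ cDC2 over cDC1, 0 proliferation markers rose and 3 fell, while 6 monocyte and macrophage markers rose and 2 fell. Among these markers, Adgre1 and Csf1r rose in both cDC2 populations, Ccr2 in CD24+CD172a+ cDC2 alone, and Cd68, C1qa, C1qb and C1qc in CD24-CD172a+ cDC2 alone. Vcam1 and Treml4 fell in both, and Spic and Lyz2 in CD24+CD172a+ cDC2 alone. Mertk, a macrophage receptor, lay below the 25th percentile of genes in every population. Of 7 plasmacytoid markers 3 rose and 1 fell in CD24+CD172a+ cDC2, and 2 rose and 2 fell in CD24-CD172a+ cDC2. Of 12 neutrophil markers 3 rose in CD24+CD172a+ cDC2, against 2 that rose in CD24-CD172a+ cDC2. Of 7 B cell markers 2 rose and 1 fell in CD24+CD172a+ cDC2, and 1 rose and 1 fell in CD24-CD172a+ cDC2. B cell markers summed to 232 to 236 in CD24+CD172a+ cDC2, 221 to 233 in CD24-CD172a+ cDC2 and 236 to 276 in cDC1. Of 7 T and NK cell markers 1, Cd3d, rose in CD24-CD172a+ cDC2. T and NK cell markers summed to 130 to 134 in CD24+CD172a+ cDC2, 140 to 148 in CD24-CD172a+ cDC2 and 139 to 142 in cDC1. Of 4 erythroid markers 0 were called in any comparison by limma, and 0 had an unadjusted p under 0.05, which 23.7% and 26.4% of all genes had in CD24+CD172a+ and CD24-CD172a+ cDC2 over cDC1. The part of other cells in the enzyme differences was not tested.

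Genes around the enzymes were read from 7 further lists, of which 94 of 101 genes were measured. In CD24+CD172a+ cDC2 over cDC1, 12 rose and 7 fell (20.2%, beside 13.6% of all genes), and in CD24-CD172a+ cDC2 over cDC1, 9 rose and 13 fell (23.4%, beside 15.7%). Between the cDC2 populations Adpgk, an ADP-dependent glucokinase, was the only one called. It measured 6.06 and 6.03 in CD24+CD172a+ cDC2, against 5.52 and 5.31 in CD24-CD172a+ cDC2 and 6.17 and 6.26 in cDC1. Adpgk rose by 0.63 in CD24+CD172a+ over CD24-CD172a+ cDC2 (limma adjusted p = 0.049), a call that ended without any 1 array, and fell by 0.80 in CD24-CD172a+ cDC2 over cDC1 (adjusted p = 0.0019).

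Slc2a1, Slc2a3 and Slc2a6 of the hexose carriers rose in both cDC2 populations over cDC1, while the Slc16a carriers moved both ways. Of 11 measured carriers, 5 rose and 2 fell in each cDC2 population over cDC1, 63.6% of the list, beside 13.6% of all genes in CD24+CD172a+ cDC2, against 15.7% in CD24-CD172a+ cDC2. Between the cDC2 populations 0 carriers were called by limma and 2 had an unadjusted p under 0.05, beside 14% of all genes. Slc2a1 (GLUT1), the basal glucose carrier, measured 8.12 and 8.43 in CD24+CD172a+ cDC2, against 8.42 and 8.35 in CD24-CD172a+ cDC2 and 6.74 and 6.67 in cDC1. The cDC2 populations overlapped, well above cDC1. Slc2a1 rose by 1.57 ± 0.14 in CD24+CD172a+ cDC2 (2.97-fold, adjusted p = 2.48e-05) and by 1.68 ± 0.14 in CD24-CD172a+ cDC2 (3.21-fold, adjusted p = 1.55e-05).

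Slc2a3 (GLUT3), a high-affinity glucose carrier, measured 7.88 and 8.13 in CD24+CD172a+ cDC2, against 7.53 and 7.39 in CD24-CD172a+ cDC2 and 5.91 and 5.43 in cDC1. It was highest in CD24+CD172a+ cDC2, with no overlap. Slc2a3 rose by 2.33 ± 0.17 there over cDC1 (5.04-fold, limma adjusted p = 5.91e-06) and by 1.79 ± 0.17 in CD24-CD172a+ cDC2 over cDC1 (3.46-fold, adjusted p = 4.48e-05), while the difference of 0.54 between the cDC2 populations was not called (adjusted p = 0.178). Slc2a6, a lysosomal member of the same carrier family, measured 7.76 and 8.04 in CD24+CD172a+ cDC2, against 7.99 and 7.82 in CD24-CD172a+ cDC2 and 5.93 and 5.82 in cDC1. It rose by 2.03 ± 0.14 in each cDC2 population over cDC1 (adjusted p = 4.39e-06 in CD24+CD172a+ and 4.14e-06 in CD24-CD172a+ cDC2). All cDC2 arrays of Slc2a6 lay above both cDC1 arrays.

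Slc16a1 (MCT1), which carries lactate in either direction, measured 4.87 and 4.54 in CD24+CD172a+ cDC2, against 4.88 and 4.35 in CD24-CD172a+ cDC2 and 6.54 and 5.69 in cDC1. It fell by 1.41 ± 0.26 in CD24+CD172a+ cDC2 (2.66-fold, limma adjusted p = 0.00424) and 2.82-fold in CD24-CD172a+ cDC2 (adjusted p = 0.00277). The cDC1 arrays stood apart from each other but above all cDC2 arrays. The call in CD24+CD172a+ cDC2 ended without its replicate 2, with an adjusted p of 0.0592. Slc16a3 (MCT4), the lactate exporter of glycolytic cells, measured 7.01 and 6.97 in CD24+CD172a+ cDC2, against 7.45 and 7.17 in CD24-CD172a+ cDC2 and 6.18 and 6.04 in cDC1. It rose by 0.88 in CD24+CD172a+ cDC2 (adjusted p = 0.00153) and by 1.20 in CD24-CD172a+ cDC2 (adjusted p = 0.000181). Slc16a3, Slc16a6 and Slc16a7 were named after their values were seen. Slc16a6 fell by 0.86 in CD24+CD172a+ cDC2 and by 0.64 in CD24-CD172a+ cDC2, the second call ending without cDC1 replicate 1, and Slc16a7 (MCT2) rose by 0.99 and by 1.09, or by 0.61 without a call and by 0.70 when cDC1 replicate 1 was left out.

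**Figure D4:**
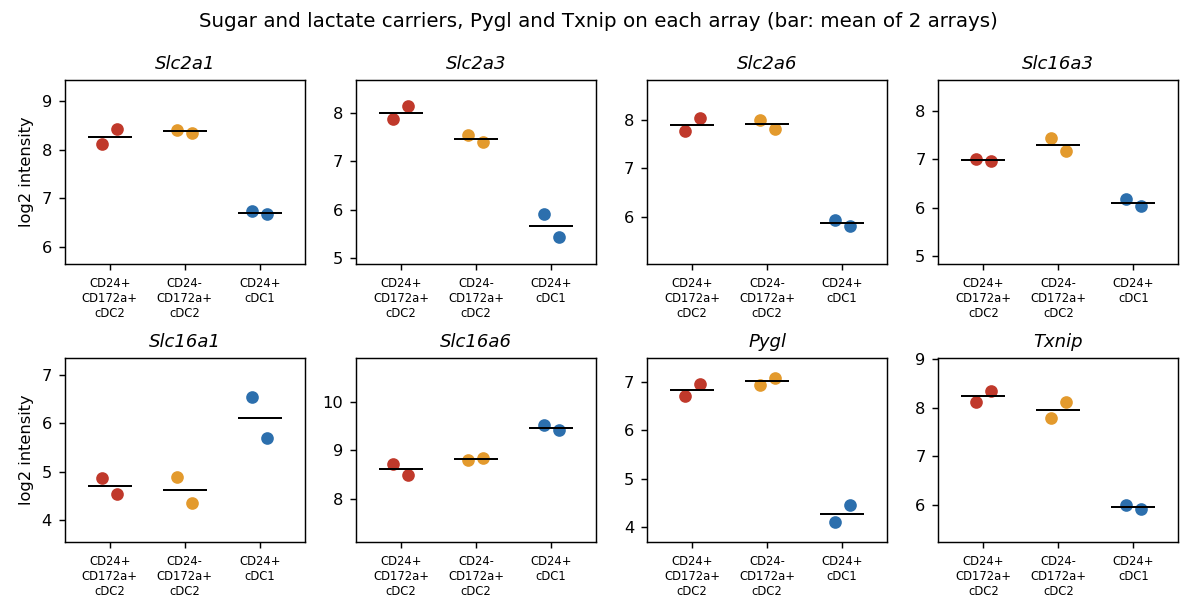
Log2 intensity of 6 carriers of the Slc2a and Slc16a families, the glycogen phosphorylase gene Pygl and Txnip on each array (points). Bars give the mean of the 2 arrays of each population, and every panel spans the same log2 range. Slc2a1, Slc2a3, Slc2a6, Slc16a3, Pygl and Txnip are lowest in cDC1, and Slc16a1 and Slc16a6 are highest there.

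Further pathway genes stood outside the enzyme list. Calls for all genes, as a share, were 13.6% in CD24+CD172a+ cDC2 over cDC1 and 15.7% in CD24-CD172a+ cDC2 over cDC1. Of 15 measured glycolysis and gluconeogenesis genes, 0 rose and 1 fell in the first comparison, and 0 rose and 3 fell in the second. Bpgm, which makes 2,3-bisphosphoglycerate, fell by 0.81 in CD24+CD172a+ cDC2 (limma adjusted p = 0.0119) and by 1.14 in CD24-CD172a+ cDC2 (adjusted p = 0.00135). Pfkfb2, of the Pfkfb family, fell by 0.53 in CD24-CD172a+ cDC2 (adjusted p = 0.0204). Of 10 pyruvate entry genes, Pdhx, a structural subunit of pyruvate dehydrogenase, was the only one called, 0.44 higher in CD24+CD172a+ cDC2 over cDC1 (adjusted p = 0.0479). Of 9 other pentose phosphate genes, Prps2, a phosphoribosyl pyrophosphate synthetase, rose by 0.67 in CD24+CD172a+ cDC2 (adjusted p = 0.042). Rpia, ribose 5-phosphate isomerase, and Rbks, ribokinase, fell by 0.59 and 0.47 in CD24-CD172a+ cDC2. Of the calls of Bpgm, Pfkfb2, Pdhx, Prps2, Rpia and Rbks, only that of Bpgm in CD24-CD172a+ cDC2 held in every fit without a compared array, and the difference of Prps2 was 0.43 when cDC1 replicate 1 was left out.

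Among 19 other citrate cycle and shuttle genes, 1 rose and 3 fell in each cDC2 population over cDC1. Of all genes, 13.6% were called in CD24+CD172a+ cDC2 over cDC1 and 15.7% in CD24-CD172a+ cDC2 over cDC1. Dlst, of the oxoglutarate dehydrogenase complex, rose by 0.60 in CD24+CD172a+ cDC2 (limma adjusted p = 0.00898) and by 0.70 in CD24-CD172a+ cDC2 (adjusted p = 0.00332). Suclg1, the shared subunit of succinyl-CoA ligase, fell by 0.89 in CD24+CD172a+ cDC2 and by 0.86 in CD24-CD172a+ cDC2. The aspartate aminotransferases of the malate-aspartate shuttle also fell. Got1, the cytosolic enzyme, measured 8.85 and 9.29 in CD24+CD172a+ cDC2, 9.39 on both CD24-CD172a+ arrays, and 9.91 and 10.11 in cDC1. Got2, the mitochondrial enzyme, measured 7.88 and 8.12 in CD24+CD172a+ cDC2, against 7.73 and 7.97 in CD24-CD172a+ cDC2 and 8.72 and 8.93 in cDC1. For both genes all cDC2 arrays were below cDC1. Got1 fell by 0.94 in CD24+CD172a+ cDC2 (adjusted p = 0.00261) and by 0.62 in CD24-CD172a+ cDC2 (adjusted p = 0.0252), and Got2 fell by 0.83 (adjusted p = 0.00357) and by 0.97 (adjusted p = 0.00118). The call of Got1 in CD24-CD172a+ cDC2 ended without any 1 of the 4 arrays compared, and that of Dlst in CD24+CD172a+ cDC2 ended without its replicate 1 or without cDC1 replicate 1.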

How the data were processed

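Total RNA of sorted splenic populations was labelled with the Affymetrix WT Pico kit and hybridised to 6 arrays, per the labels' protocols. The deposited values are intensities on a linear scale made with Affymetrix Expression Console and RMA, per the submitters' processing notes; versions and genome build were not given in the sources used here. RMA fits background and quantile-normalises arrays, so a shift of all genes would not be seen. Of 28853 probe sets, 21789 carry 1 symbol, 1621 several and 5443 none. The log2 of the intensity was taken, the brightest single-symbol probe set kept per gene (999 genes had several), and no filter applied. Groups came from the sample titles. All 6 arrays entered a limma 3.58.1 fit (lmFit and eBayes, R 4.3.3, 3 residual and 7.31 prior degrees of freedom, prior SD 0.145), adjusted by Benjamini-Hochberg over 19938 genes at 0.05. Comparisons were CD24+CD172a+ over CD24-CD172a+ cDC2, CD24+CD172a+ cDC2 over cDC1 and CD24-CD172a+ cDC2 over cDC1. The fit was tested on simulated data. No set test was made. Members, lists and tests were chosen with earlier results of these data known. Named genes are every member and, from each related list, up to 4 called genes per comparison by size; Hif1a and single markers were named after their values were seen. Alternatives were a filter on dim genes, all probe sets, their mean, cyclic loess, median centring, an intensity trend, the compared groups alone, a replicate block and each array left out; those for related and marker genes were added after their values were seen. Promoters were RefSeq windows on GRCm38.p6. Figures used Python 3.11.15 and matplotlib 3.10.9.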

Additional observations from a re-analysis of the deposited data

How the results depend on the processing

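Of the differences of single enzymes under all alternatives, 1370 kept their direction and their side of the threshold, 76 kept only the direction and lost the call, 18 gained a call, 36 that were never called changed sign, and 0 changed sign with a call. Genes called between the cDC2 populations numbered 291, and 437 with only genes above the median gene, 464 with an intensity trend and robust variance, and 187 with only the 2 groups compared. Enzymes called there were 1, and 2 under each of these settings and with the replicate block, Eno3 being the added one. Leaving out single arrays gave 20 to 187 genes and 0 to 2 enzymes between the cDC2 populations, 1781 to 2769 genes and 7 to 15 enzymes in CD24+CD172a+ cDC2 over cDC1, and 1922 to 2839 genes and 12 to 15 enzymes in CD24-CD172a+ cDC2 over cDC1, fewer arrays being tested. The highest gene count of each range came from leaving out an array of the group not compared. So did the highest enzyme counts between the cDC2 populations and in CD24+CD172a+ cDC2 over cDC1. Such fits only repeat the one with the 2 groups compared, and the tallies of single enzymes above include these repeats. Without a compared array, fewer genes were called than with only the 2 groups compared. With 1 array left in a group, that array is assumed to vary like the other groups. Cyclic loess ended the calls of Pfkl, Ldha, Sucla2 and Mdh1, and median centring that of Pdk3, in CD24-CD172a+ cDC2 over cDC1. In that comparison, 14 enzymes were called with only the 2 groups compared, beside 14.2% of all genes. With all probe sets 17 were called, beside 15.1% of probe sets, against 19 and 15.7% of all genes in the main fit. Same-numbered arrays deviated together by r = 0.0838, 0.0837 and 0.0242, so the numbers were not taken as pairs. The replicate block gave 411, 2918 and 3323 genes and 2, 15 and 20 enzymes in CD24+CD172a+ over CD24-CD172a+ cDC2, CD24+CD172a+ cDC2 over cDC1 and CD24-CD172a+ cDC2 over cDC1. No scanner signal over background was used, so dim genes such as Fbp1 and Pfkm are least certain. Idh1 (4.50 to 4.90) and Aldoc (4.79 to 5.13) in cDC2 also lay near or below the median gene (5.04). So did Hk3 in CD24+CD172a+ cDC2 (5.08 and 5.13), and the sizes of these falls are less certain too.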

Other observations

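Glycogen genes lay outside the enzyme list and were led by Pygl. Of 12 measured, 2 rose and 0 fell in CD24+CD172a+ cDC2 over cDC1, beside 13.6% of all genes called. In CD24-CD172a+ cDC2 over cDC1, 1 rose and 1 fell, beside 15.7% of all genes. Pygl, the liver-type glycogen phosphorylase that frees glucose 1-phosphate from glycogen, measured 6.70 and 6.96 in CD24+CD172a+ cDC2, against 6.93 and 7.09 in CD24-CD172a+ cDC2 and 4.10 and 4.45 in cDC1. The cDC2 populations overlapped, far above cDC1. Pygl rose by 2.56 ± 0.16 in CD24+CD172a+ cDC2 (5.89-fold, limma adjusted p = 1.73e-06) and by 2.74 ± 0.16 in CD24-CD172a+ cDC2 (6.66-fold, adjusted p = 9.5e-07). Gbe1, the glycogen branching enzyme, rose by 0.89 in CD24+CD172a+ cDC2 over cDC1 (adjusted p = 0.0157), and by 0.51 without a call when cDC1 replicate 2 was left out. Gyg, glycogenin, which primes glycogen, fell by 0.76 in CD24-CD172a+ cDC2 (adjusted p = 0.00377).

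Among 18 regulators of glycolysis, 2 rose and 1 fell in CD24+CD172a+ cDC2 over cDC1, beside 13.6% of all genes called. In CD24-CD172a+ cDC2 over cDC1, 2 rose and 2 fell, beside 15.7% of all genes. Txnip, a glucose-responsive inhibitor of glucose uptake, measured 8.13 and 8.36 in CD24+CD172a+ cDC2, against 7.79 and 8.12 in CD24-CD172a+ cDC2 and 6.01 and 5.91 in cDC1. It rose by 2.28 ± 0.15 in CD24+CD172a+ cDC2 (4.87-fold, limma adjusted p = 2.71e-06) and also in CD24-CD172a+ cDC2 (95% interval 1.66 to 2.34, adjusted p = 7.11e-06). Myc, a transcription factor that drives glycolytic genes, rose by 0.93 in CD24-CD172a+ cDC2 (adjusted p = 0.00813) and differed by 0.64 in CD24+CD172a+ cDC2 (adjusted p = 0.0585). Mtor, the growth kinase, fell by 0.52 in CD24+CD172a+ cDC2 (adjusted p = 0.0257) and by 0.56 in CD24-CD172a+ cDC2 (adjusted p = 0.0157). The prolyl hydroxylases that mark HIF1A for breakdown gave a rise of Egln3 by 0.75 in CD24+CD172a+ cDC2 (adjusted p = 0.0147) and a fall of Egln1 by 0.56 in CD24-CD172a+ cDC2 (adjusted p = 0.0185). The calls of Myc, Mtor, Egln1 and Egln3 each ended in at least 2 of the 4 fits without a compared array. Hif1a itself, the oxygen-regulated activator of glycolytic genes, differed from cDC1 by -0.04 (95% interval -0.33 to 0.25) in CD24+CD172a+ cDC2 and by -0.17 (-0.47 to 0.12) in CD24-CD172a+ cDC2.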
